A study of Mus musculus with 3 samples.

Results

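Ephrins, semaphorins, Slits and netrins and their Eph, plexin, neuropilin, Robo and Unc5 receptors were examined in ribosome-bound RNA from mouse brain after a stroke model. Members were all rows of the deposited table whose gene symbol carries one of these family names, which gave 70 of 16610 genes. They comprised 35 ligands, 33 receptors, and Unc50 and Unc5cl, which match by spelling and are not netrin receptors. Each of the 3 groups was 1 library from a pool of 3 animals, with 2 technical replicates per pool and tissue taken 3 days after the procedure. The MCAO library came from the left hemisphere of animals in which the middle cerebral artery had been blocked for 1 h. The contralateral library came from the right hemisphere of MCAO animals, and the control library from the right hemisphere of animals without MCAO. All 3 libraries came from the middle section of a hemisphere and were prepared by a RiboTag pull-down, which precipitates an epitope-tagged ribosomal protein together with the transcripts bound to it. The series title speaks of astrocytes, whereas the labels name no driver line, strain, age or sex. No left hemisphere without MCAO is among the samples, so occlusion and side of the brain cannot be told apart.

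Guidance cues steer growing axons by attraction or repulsion and are also read by migrating glia, vessels and synapses. Ephrins are held in the membrane of one cell and bind Eph receptor tyrosine kinases on the next, so that both cells can receive a signal. Semaphorins act through plexins, and most secreted class 3 semaphorins need a neuropilin as co-receptor. Slits bind Robo receptors and mainly repel, and netrin-1 attracts through Dcc and repels through Unc5 receptors. Several of these cues persist in the adult brain and are studied as limits on axon growth after injury.

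The libraries held 25930258 (MCAO), 33886604 (contralateral) and 31833456 (control) reads assigned to the listed genes. Markers of astrocytes and of neurons were both present: 17 astrocyte identity genes had median values of 12076 (MCAO), 12025 (contralateral) and 12689 (control) normalised read counts, and 14 neuron genes had 12525 (MCAO), 12875 (contralateral) and 12711 (control). No gene of either list was at the minimum of the table. Pan-reactive astrocyte genes were higher in the MCAO library, with 11 of 12 past 2-fold over control, as were 9 of 12 microglia genes and 8 of 9 macrophage genes, while 7 of 8 striatal neuron genes were at least 2-fold lower. The contralateral library stood apart through 12 male germ cell genes, whose sums were 1209 (MCAO), 12564 (contralateral) and 1153 (control) normalised counts, with 2 of them at the minimum in the MCAO library and 4 in the control library. Odf2 made up most of the MCAO and control sums, with 1175 (MCAO), 3401 (contralateral) and 1111 (control). No other gene of the list exceeded 10.6 (MCAO) or 7.75 (control), while in the contralateral library the others ranged from 32.8 to 1647. Each group being 1 library, no difference could be set against the spread between replicates, and no p-values are given. Brackets after a ratio give its exact 95% counting interval, which covers counting error only.

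The guidance genes as a whole differed little between the 3 libraries, and the few differences counted at 2-fold fell on low members. Plxnb3, not a low gene, stood at the 2-fold line in the MCAO library against control, with a ratio of 2.0. Each difference is one of log2(value + 5), given for the 66 members that averaged 20 or more normalised counts over the libraries, a level that 14906 genes in all reached. None of the 66 members was at least 2-fold higher in the MCAO library than in both right hemispheres, a rule met by 2.58% of all genes, and none was 2-fold lower than both, a rule met by 0.517%. Against the control alone, 1 member was at least 2-fold higher (4.12% of all genes) and 1 was at least 2-fold lower (1.25%). At 1.5-fold, 3 members were higher than in control (9.16% of all genes) and 2 were lower (5.18%). The median difference of the members, MCAO minus control, was -0.09, with an interquartile range of -0.26 to 0.12. Over all genes the median was -0.00 and the interquartile range -0.22 to 0.24. In bulk RNA of this kind, fewer cells of a type and less RNA per cell cannot be told apart.

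Summed over all 70 members, the normalised counts were 95905 in the MCAO library, 91756 in the contralateral library and 102607 in the control library, which was 0.314% of the reads (MCAO), 0.305% (contralateral) and 0.333% (control). The 35 ligands summed to 35336 (MCAO), 34729 (contralateral) and 39496 (control), and the 33 receptors to 59636 (MCAO), 56091 (contralateral) and 62284 (control). Both classes thus had their highest sum in the control library.

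**Figure D1:**
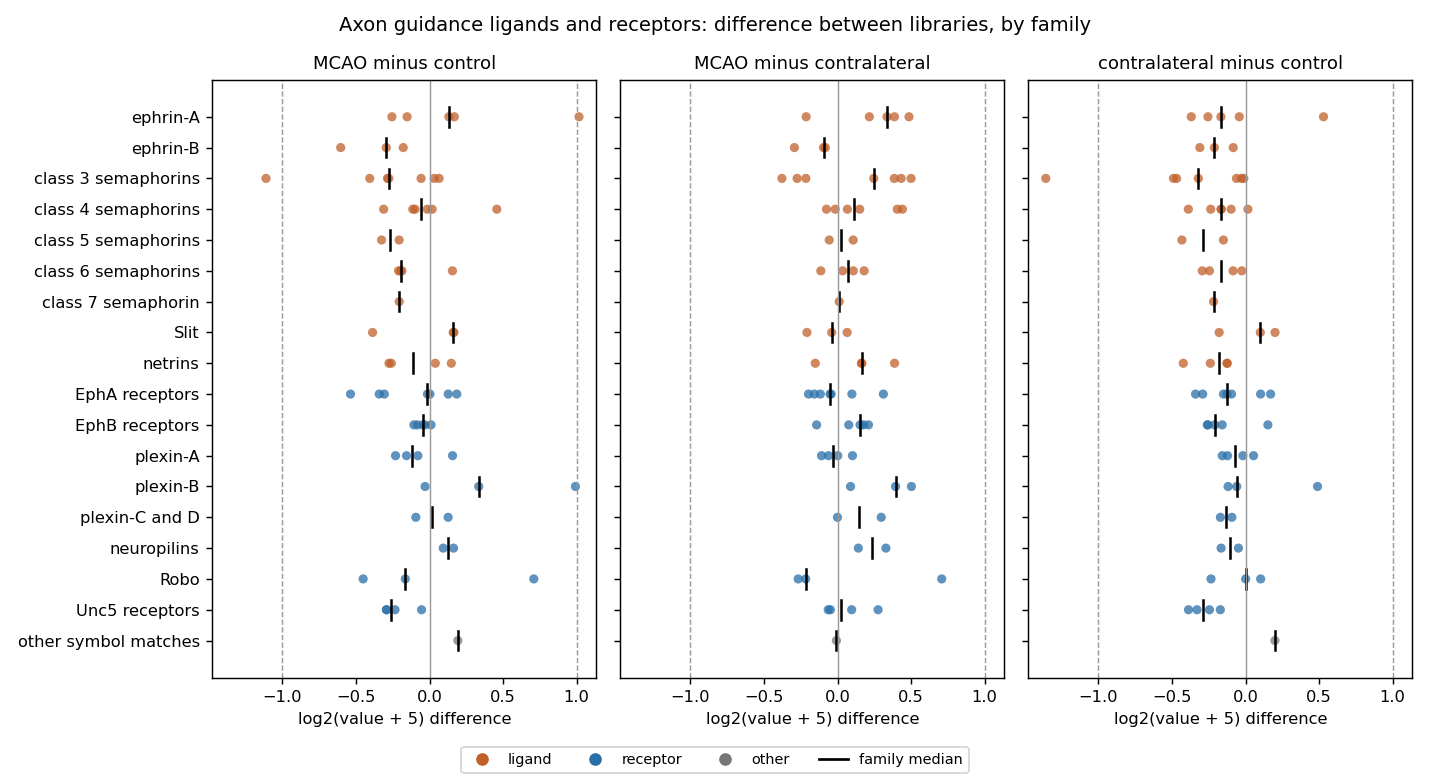
Each point is 1 of the 66 members past the filter, placed by its log2(value + 5) difference (horizontal axis) in its family (rows), for MCAO minus control, MCAO minus contralateral and contralateral minus control; black bars are family medians and dashed lines mark 2-fold. Nearly all points lie between the dashed lines, and most points of the contralateral minus control panel lie left of 0.

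Among the members with the highest MCAO values relative to control, 2 are low genes that rest on few reads. Epha2, a receptor for ephrin-A ligands that in mammals is prominent in epithelia and vessels, had 35.3 normalised counts in the MCAO library, 16.9 in the contralateral library and 7.75 in the control library. These were 30, 19 and 8 reads, a ratio to control of 4.55 (2.04 to 11.5) and to contralateral of 2.09 (1.14 to 3.94). Its mean of 19.96 put it just under the filter, so it is not counted among the members past 2-fold. Efna4, which encodes the ephrin-A4 ligand, had 30.6 (MCAO), 20.4 (contralateral) and 12.6 (control) normalised counts, from 26, 23 and 13 reads. It was the 1 member past the filter that reached 2-fold over control, at 2.43-fold (1.2 to 5.15), and with a mean of 21.2 it passed the filter only through its high MCAO value, while its ratio to the contralateral library was 1.5 (0.822 to 2.75). Both genes had their lowest value in the control and an intermediate one in the contralateral library.

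Plxnb3, a plexin that binds Sema5a and that is known for expression in oligodendrocytes, showed the same order on many more reads. It had 814 normalised counts in the MCAO library, 573 in the contralateral library and 407 in the control library, a ratio to control of 2.0 (1.77 to 2.26). On the log2(value + 5) scale its difference was 0.99, just under the 2-fold line, where Efna4 had 1.02. Contralateral over control was 1.41 (1.24 to 1.6). Oligodendrocyte lineage markers were also higher in the MCAO library. The 11 oligodendrocyte genes had a median difference from control of 0.24 in the MCAO library and summed to 165589 (MCAO), 110760 (contralateral) and 131864 (control) normalised counts, with none at the minimum. The 9 oligodendrocyte precursor genes had a median of 0.32, summed to 14629 (MCAO), 11193 (contralateral) and 10504 (control), and included Cspg4 and Olig2 past 2-fold over control. Their part in the Plxnb3 difference was not tested.

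Robo3, a divergent Robo receptor needed for hindbrain axons to cross the midline, had 124 normalised counts in the MCAO library, 73.6 in the contralateral library and 73.6 in the control library. Here the right hemispheres were level, and the MCAO library exceeded control by a ratio of 1.68 (1.24 to 2.28) and the contralateral library by 1.68 (1.25 to 2.26). Among members past the filter it was the single one at least 1.5-fold above both.

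Promoter windows of these 4 genes are shown because these are the members with the largest positive differences between the MCAO and control libraries. Each is the RefSeq window of 250 bases before to 50 bases after an annotated start, on GRCm38.p6, written 5′ to 3′ on the gene's strand, with CpG dinucleotides in capitals. Epha2 is at chr4:141300971-141301270 (plus strand), Efna4 at chr3:89337979-89338278 (minus), Plxnb3 at chrX:73756853-73757152 (plus) and Robo3 at chr9:37433126-37433425 (minus). The Plxnb3 and Robo3 windows lie inside the bounds of their genes, whose 5′ ends are at 73756556 (Plxnb3) and 37433436 (Robo3). They are therefore set on an inner start, and the region before the outermost start of these genes is not shown.
Epha2: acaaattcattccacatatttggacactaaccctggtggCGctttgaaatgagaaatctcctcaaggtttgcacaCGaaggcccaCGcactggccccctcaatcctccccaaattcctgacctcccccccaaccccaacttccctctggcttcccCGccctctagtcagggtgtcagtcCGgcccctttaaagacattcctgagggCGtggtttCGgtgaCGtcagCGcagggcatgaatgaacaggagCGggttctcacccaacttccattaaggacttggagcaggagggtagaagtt
Efna4: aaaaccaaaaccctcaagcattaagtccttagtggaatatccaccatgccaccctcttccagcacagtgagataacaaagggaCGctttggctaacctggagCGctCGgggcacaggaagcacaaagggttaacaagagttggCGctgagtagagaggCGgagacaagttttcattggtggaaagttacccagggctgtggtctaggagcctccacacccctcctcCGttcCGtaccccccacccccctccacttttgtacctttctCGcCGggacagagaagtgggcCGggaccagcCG
Plxnb3: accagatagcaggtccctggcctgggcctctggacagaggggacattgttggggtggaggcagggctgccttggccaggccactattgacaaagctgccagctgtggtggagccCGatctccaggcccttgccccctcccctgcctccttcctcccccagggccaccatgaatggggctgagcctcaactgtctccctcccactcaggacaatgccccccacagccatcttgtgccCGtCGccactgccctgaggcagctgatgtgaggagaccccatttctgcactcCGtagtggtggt
Robo3: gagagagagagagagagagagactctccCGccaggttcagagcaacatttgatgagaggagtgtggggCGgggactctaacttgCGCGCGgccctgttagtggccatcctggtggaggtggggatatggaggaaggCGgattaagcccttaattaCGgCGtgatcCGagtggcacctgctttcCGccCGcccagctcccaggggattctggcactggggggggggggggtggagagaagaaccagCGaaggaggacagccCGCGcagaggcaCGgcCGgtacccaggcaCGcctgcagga

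They held 10 (Epha2), 11 (Efna4), 4 (Plxnb3) and 17 (Robo3) CpGs. Promoter windows were found for 61 of the 70 members, and their 77 windows had a median of 19 CpGs and a GC content of 64.3%, against 7 CpGs and 52.7% over the 32851 windows of all genes in the RefSeq table, non-coding genes included. All 4 windows shown were therefore below the median of the members in CpG count. The letters TTCNNNGAA, a STAT-type motif, and TGANTCA, an AP-1-type motif, were found in none of the 4 windows. Both motifs read the same on the opposite strand. They occur in 8.3% and 7.81% of all windows, and in 3 and 3 of the members' windows.

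**Figure D2:**
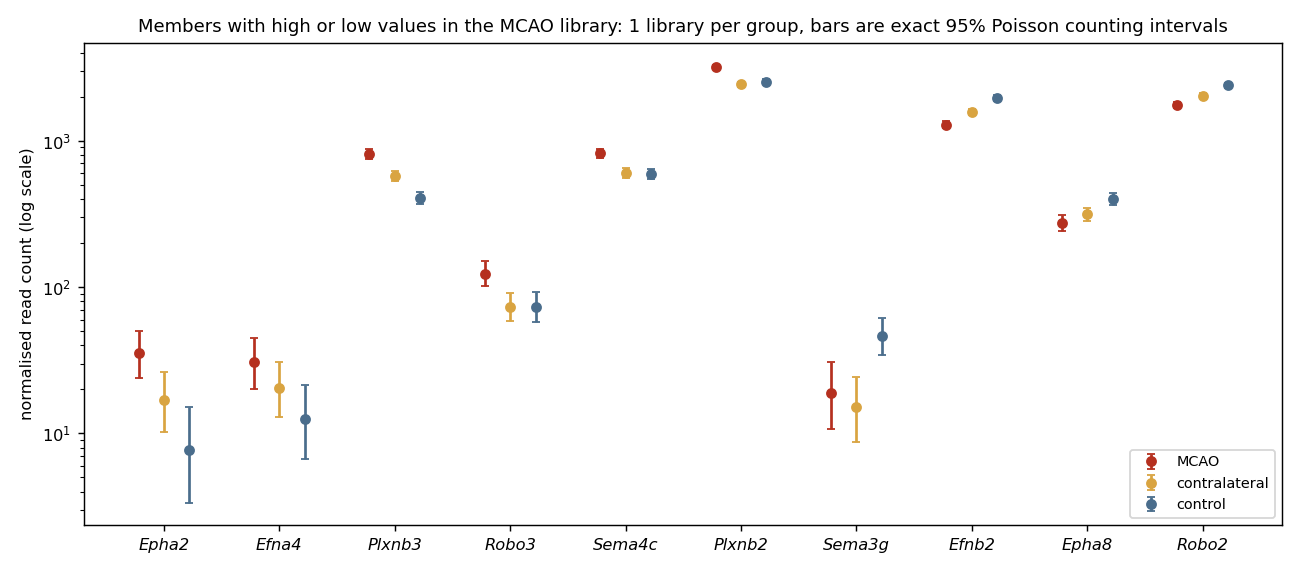
Normalised read counts (vertical axis, log scale) of 10 members in the MCAO, contralateral and control libraries, 1 point per library with its exact 95% Poisson counting interval. The first 6 genes have the highest MCAO values relative to control, and Sema3g, Efnb2, Epha8 and Robo2 the lowest among members past the filter.

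Of the 8 ephrin ligands, the 3 ephrin-B genes were all lower in the MCAO library than in the control. Efnb2, a transmembrane ephrin of arteries, neurons and astrocytes, had 1289 normalised counts in the MCAO library, 1581 in the contralateral library and 1962 in the control library. It was 1.52-fold lower than in control (1.41 to 1.64) and 1.23-fold lower than in the contralateral library (1.14 to 1.32). Efnb3, best known as a midline barrier to corticospinal axons, had 3217 (MCAO), 3407 (contralateral) and 3947 (control), 1.23-fold lower than in control (1.17 to 1.29). Efnb1 had 349 (MCAO), 374 (contralateral) and 396 (control), and its ratio to control of 0.882 had an interval of 0.757 to 1.03. All 3 ephrin-B genes thus had the order MCAO, contralateral, control from low to high.

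The 5 ephrin-A ligands, which are tethered by a lipid anchor, had no common direction. Beside Efna4, Efna2 had 286 normalised counts in the MCAO library, 225 in the contralateral library and 254 in the control library. Efna3, which lies close to Efna4 and Efna1 on chromosome 3, had 650 (MCAO), 755 (contralateral) and 778 (control), a ratio to control of 0.836 (0.749 to 0.933), and so lay on the other side of 1 from Efna4. Efna5, a repellent cue of topographic maps, had 1232 (MCAO), 1059 (contralateral) and 1369 (control) normalised counts. Its MCAO value lay between those of the right hemispheres. Efna1 had a ratio to control of 1.1 (0.826 to 1.46).

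Of the 14 Eph receptors, 12 passed the filter and none of these 12 differed 2-fold between any pair of libraries. Epha2, just under the filter, was 4.55-fold the control in the MCAO library, on few reads. Among the 12, the lowest relative to control is given first. Epha8 was the lowest relative to control, with 274 normalised counts in the MCAO library, 315 in the contralateral library and 400 in the control library, 1.46-fold lower than in control (1.24 to 1.72). Epha4, a receptor for ephrins of both classes that is studied as an obstacle to axon regrowth, had 4442 (MCAO), 4600 (contralateral) and 5631 (control). It was 1.27-fold lower than in control (1.22 to 1.32), and its ratio to the contralateral library was 0.965 (0.926 to 1.01). Epha3 had 116 (MCAO), 130 (contralateral) and 145 (control) normalised counts, and the interval of its ratio to control ran from 0.616 to 1.04.

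Epha5 ran the other way, with 4346 normalised counts in the MCAO library, 3501 in the contralateral library and 3822 in the control library, at 1.14-fold the control (1.09 to 1.19). The 5 EphB receptors had MCAO minus control differences between -0.11 and 0.01. Ephb6, whose kinase domain is inactive, had 3212 (MCAO), 2888 (contralateral) and 3459 (control), and Ephb4, a venous receptor for ephrin-B2, had 194 (MCAO), 215 (contralateral) and 193 (control). The remaining EphA genes past the filter, Epha6, Epha7 and Epha10, had ratios to control between 0.99 and 1.09. Epha1 stayed under the filter, with 7, 18 and 10 reads in the MCAO, contralateral and control libraries.

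Of the 7 secreted class 3 semaphorins, 5 were lower in the MCAO library than in control, where 50.3% of all genes were lower, and the median difference was -0.28. The class 4 genes were lower in 4 of 6 and the class 6 genes in 3 of 4. Against the contralateral library, 4 of 7 class 3, 4 of 6 class 4 and 3 of 4 class 6 genes were higher in the MCAO library, where 49.7% of all genes were higher. Their median differences were 0.25 (class 3), 0.11 (class 4) and 0.07 (class 6), and the counts rest on few genes. Sema3g, a vascular semaphorin that signals through neuropilin-2, was the 1 member past the filter at least 2-fold lower. It had 18.8 normalised counts in the MCAO library, 15.1 in the contralateral library and 46.5 in the control library, from 16, 17 and 48 reads. It was 2.47-fold lower than in control (1.38 to 4.66) in the MCAO library and 3.08-fold lower (1.74 to 5.72) in the contralateral library, and was the 1 member past the filter 2-fold lower there, where 0.362% of all genes were. Its MCAO and contralateral values were both under 20, so it passed the filter only through the control library, where it was high. The 12 endothelial markers, of which 11 passed the filter, had median differences of 0.17 (MCAO minus control) and -0.39 (contralateral minus control). They summed to 1330 (MCAO), 862 (contralateral) and 1085 (control) normalised counts with none at the minimum. Their part in the Sema3g difference was not tested.

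Sema3f, a repellent that acts through neuropilin-2, had 249 normalised counts in the MCAO library, 326 in the contralateral library and 332 in the control library, 1.33-fold lower than in control (1.12 to 1.59) and 1.31-fold lower than in the contralateral library (1.1 to 1.55). Sema3e, the ligand of plexin-D1, had 1065 (MCAO), 1237 (contralateral) and 1291 (control), 1.21-fold lower than in control (1.11 to 1.32). For these genes the right hemispheres were close and the MCAO library was the low one. Sema3c had 674 (MCAO), 515 (contralateral) and 644 (control) normalised counts, with the contralateral library as the low one. Sema3b and Sema3d, like Sema3c, had their lowest value in the contralateral library, at 0.718-fold (0.601 to 0.857) and 0.708-fold (0.607 to 0.825) of control.

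Among membrane-bound semaphorins, Sema4c had the highest MCAO value relative to control. It had 821 normalised counts in the MCAO library, 603 in the contralateral library and 597 in the control library, with ratios of 1.38 to control (1.23 to 1.54) and 1.36 to contralateral (1.22 to 1.51). Sema4g had 785 (MCAO), 827 (contralateral) and 975 (control), 1.24-fold lower than in control (1.13 to 1.37). Sema4f had 2136 (MCAO), 1924 (contralateral) and 2159 (control), and its ratio to control of 0.989 had an interval that included 1. The other class 4 genes, Sema4a, Sema4b and Sema4d, had ratios to control between 0.924 and 1.01.

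Sema5a, a cue with both attractive and repulsive actions, had 1556 normalised counts in the MCAO library, 1445 in the contralateral library and 1953 in the control library, 1.25-fold lower than in control (1.17 to 1.35). Sema5b had 428 (MCAO), 445 (contralateral) and 495 (control). Sema6a had 1205 (MCAO), 1062 (contralateral) and 1081 (control) and was the 1 of 4 class 6 genes above control in the MCAO library. Sema6b had 3631 (MCAO), 3545 (contralateral) and 4203 (control), 1.16-fold lower than in control (1.11 to 1.21), and Sema6c and Sema6d had ratios to control of 0.877 and 0.872. Sema7a, a lipid-anchored semaphorin, had 2956 (MCAO), 2933 (contralateral) and 3411 (control). In Sema6b and Sema7a the MCAO and contralateral libraries were close to each other and the control was the high one.

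Plexins are the signalling receptors of semaphorins, and beside Plxnb3 another gene of the B class was higher in the MCAO library than in both right hemispheres. Plxnb2, a receptor for Sema4c, had 3190 normalised counts in the MCAO library, 2426 in the contralateral library and 2529 in the control library, with ratios of 1.26 to control (1.2 to 1.33) and 1.32 to contralateral (1.25 to 1.39). Plxnb1, a receptor for Sema4d, had 8978 (MCAO), 8444 (contralateral) and 9169 (control), a ratio to control of 0.979 (0.95 to 1.01). Of the A class, Plxna2 had 2592 (MCAO), 2796 (contralateral) and 3044 (control), 1.17-fold lower than in control (1.11 to 1.24). Plxna3 had 636 (MCAO), 593 (contralateral) and 570 (control) normalised counts. Plxna4 had 2992 (MCAO), 2989 (contralateral) and 3337 (control), and Plxna1 had a ratio to control of 0.946.

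Plxnc1, the receptor of Sema7a, had 1821 (MCAO), 1822 (contralateral) and 1943 (control) normalised counts. Plxnd1 had 2594 (MCAO), 2110 (contralateral) and 2376 (control), 1.09-fold the control (1.03 to 1.16). The neuropilins were both slightly higher in the MCAO library. Nrp1 had 1784 (MCAO), 1420 (contralateral) and 1593 (control), 1.12-fold the control (1.04 to 1.2), and Nrp2 had 1488 (MCAO), 1349 (contralateral) and 1395 (control). Microglia and macrophage markers, which were also higher in the MCAO library, had medians of 1.89 and 3.02 over control, and summed to 30312 and 13642 (MCAO), 10164 and 1072 (contralateral) and 9999.9 and 670.2 (control) normalised counts. Of the macrophage genes, 1 was at the minimum in the contralateral library. Their part in the plexin-B and neuropilin differences was not tested.

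Slit and Robo genes were spread around 0. Slit1 had 1150 normalised counts in the MCAO library, 1183 in the contralateral library and 1029 in the control library, and Slit2 had 834 (MCAO), 797 (contralateral) and 743 (control). Both were 1.12-fold the control in the MCAO library, with intervals of 1.02 to 1.22 and 1.01 to 1.25. Slit3 had 416 (MCAO), 482 (contralateral) and 546 (control), 1.31-fold lower than in control (1.15 to 1.5). Robo2, a Slit receptor, had 1751 (MCAO), 2036 (contralateral) and 2397 (control), 1.37-fold lower than in control (1.28 to 1.46) and 1.16-fold lower than in the contralateral library (1.09 to 1.24). Robo1 had a ratio to control of 0.892 (0.815 to 0.975). Robo4, the endothelial Robo, stayed under the filter with 15, 11 and 18 reads in the MCAO, contralateral and control libraries.

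Netrins and Unc5 receptors were level or lower. Ntn1, the founding netrin, had 758 normalised counts in the MCAO library, 675 in the contralateral library and 737 in the control library. Ntn3 had 345 (MCAO), 383 (contralateral) and 418 (control), and Ntn5 had 116 (MCAO), 87.8 (contralateral) and 105 (control), while Ntn4 had a ratio to control of 0.833 (0.709 to 0.977). The 4 Unc5 receptors were all lower than in control. Unc5a had 2887 (MCAO), 2700 (contralateral) and 3534 (control), 1.22-fold lower in the MCAO library (1.16 to 1.29) and 1.31-fold lower in the contralateral library (1.25 to 1.37). Unc5b had 1175 (MCAO), 970 (contralateral) and 1220 (control) normalised counts, Unc5d had 1319 (MCAO), 1364 (contralateral) and 1617 (control), and Unc5c had a ratio to control of 0.849 (0.779 to 0.926). The Unc5b ratio to control, 0.963, had an interval of 0.885 to 1.05.

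Unc5a overlaps Hk3 in the RefSeq table, and the strand used for counting is not given in the sources used here. Hk3 had 256 normalised counts in the MCAO library, 46.1 in the contralateral library and 32.9 in the control library, an order opposite to that of Unc5a between MCAO and control. Overlaps with listed genes were found for 5 members, namely Epha1, Ntn3, Ntn4, Ntn5 and Unc5a. Tbc1d24, which overlaps Ntn3, had 1436 (MCAO), 1527 (contralateral) and 1931 (control) normalised counts, the same order as Ntn3 at a higher level. Zyx, which overlaps Epha1, had 783 (MCAO), 890 (contralateral) and 800 (control), also the order of its partner. Gm8580 and Sec1 did not share the order of Ntn4 and Ntn5. The part of overlapping genes in these values was not tested. Of the spelling matches, Unc50 had 929 (MCAO), 934 (contralateral) and 813 (control) normalised counts. Unc5cl had 3.53 (MCAO), 1.77 (contralateral) and 14.5 (control), from 3, 2 and 15 reads, and its ratio to control of 0.243 had an interval of 0.0451 to 0.859.

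Neuron markers were also lower in the MCAO library. Beside the 42 of 66 members lower in the MCAO library than in control (50.3% of all genes), 11 of 14 neuron genes, all 7 cortical projection neuron genes and all 8 striatal neuron genes were lower, with medians of -0.18, -0.30 and -1.69. The striatal list summed to 13449 (MCAO), 33298 (contralateral) and 36075 (control) normalised counts, and the cortical list to 9040 (MCAO), 9067 (contralateral) and 11774 (control). No gene of these lists was at the minimum, and their part in the lower guidance genes was not tested.

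Ligands and the receptors they bind were set side by side for 14 textbook pairs, chosen with the values known. Both partners were higher than in control in the MCAO library for 1 pair, Sema4c and Plxnb2. Both were lower for 3 pairs, which were Sema7a with Plxnc1, Sema6d with Plxna1, and Efnb3 with Epha4. In the other 10 pairs the partners lay on opposite sides of 1, among them Sema5a at 0.797-fold (0.743 to 0.855) and its receptor Plxnb3 at 2.0-fold. Sema3a had 0.818-fold (0.712 to 0.939) of its control value and its co-receptor Nrp1 had 1.12-fold. For the pairs of Sema4d with Plxnb1 and Ntn1 with Unc5b, the intervals of both partners included 1. The intervals of Nrp2 (paired with Sema3f), Ephb4 (with Efnb2) and Plxnc1 (with Sema7a) also included 1. Over all genes, 50.3% were lower than in control. No share was taken over pairs of other genes, so the counts of pairs describe these 14 pairs only.

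**Figure D3:**
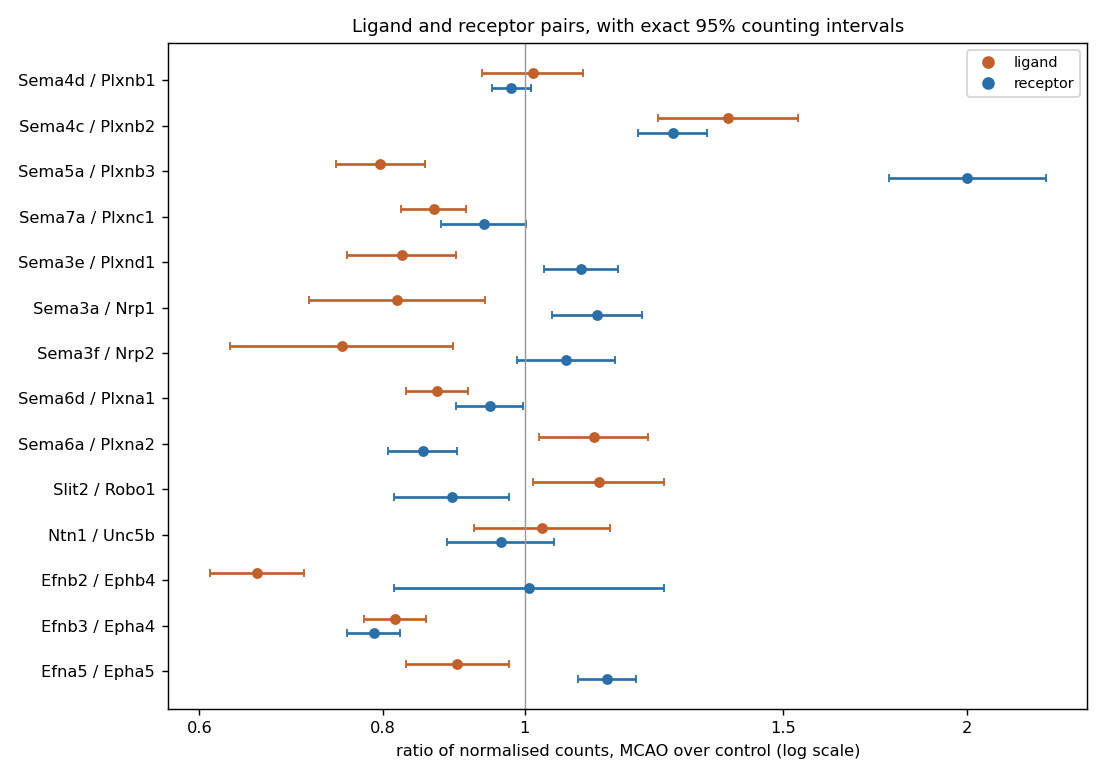
Ratio of normalised counts, MCAO over control (horizontal axis, log scale), for ligands and receptors of 14 pairs (rows), with exact 95% counting intervals. Sema4c and Plxnb2 both lie right of 1, and Sema5a lies left of 1 while Plxnb3 lies at 2.0.

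The right hemisphere of MCAO animals was compared with the right hemisphere of animals without MCAO to ask whether the side opposite the occlusion differed. Small lower values were widespread there. Of the 66 members, 54 were lower in the contralateral library than in control, 81.8% of members against 50.6% of all genes. The median difference was -0.16, with an interquartile range of -0.25 to -0.04, and it was -0.17 for the 35 ligands and -0.14 for the 30 receptors past the filter. No member was at least 2-fold higher, a size reached by 5.17% of all genes, and none was 1.5-fold higher (8.43% of all genes). These shares of all genes include low genes and the male germ cell transcripts of the contralateral library. With a mean of at least 100, 188 of 12437 genes were 2-fold higher and 425 were 1.5-fold higher, against 0 of 63 members. Sema3g alone was 1.5-fold lower, a size reached by 2.25% of all genes. Limited to genes with a mean of at least 100, the share was 84.1% of 63 members against 53.7% of 12437 genes.

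All 7 class 3 semaphorins, all 4 netrins, all 4 class 6 semaphorins, all 4 Unc5 receptors and all 3 ephrin-B ligands were lower in the contralateral library than in control. Many of these differences were small. The ratios of Sema3a, Sema3e, Sema3f, Ntn1, Ntn3, Ntn5, Sema6a and Efnb1 had intervals that included 1. In the Slit and Robo families 2 of 3 genes past the filter were higher in each, with medians of 0.10 and 0.00. Of these higher genes, Slit2, Robo1 and Robo3 had intervals that included 1, and Slit1 did not. Sema5a was at 0.74-fold (0.693 to 0.791), Ntn4 at 0.742-fold (0.637 to 0.864), Sema4d at 0.763-fold (0.705 to 0.826) and Efna5 at 0.774-fold (0.716 to 0.836). Among members past the filter, Plxnb3 and Efna4 had the highest contralateral values relative to control, the Efna4 ratio being 1.62 (0.787 to 3.48), followed by Slit1 and Unc50 at 1.15-fold each. In the same comparison 11 of 14 neuron genes, all 7 cortical genes and 9 of 11 endothelial genes were lower, with medians of -0.10, -0.31 and -0.39, and 7 of 17 astrocyte identity genes were. Whether these moved the guidance genes was not tested.

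The MCAO and contralateral libraries both came from MCAO animals, but they differed in occlusion and in side together. The contralateral library also held the male germ cell transcripts. Here 38 of 66 members were higher in the MCAO library, 57.6% against 49.7% of all genes, with a median of 0.07. Robo3 had the highest difference, at 0.71, and Sema3f the lowest, at -0.38. The comparisons share libraries, so their values are not independent of each other.

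**Figure D4:**
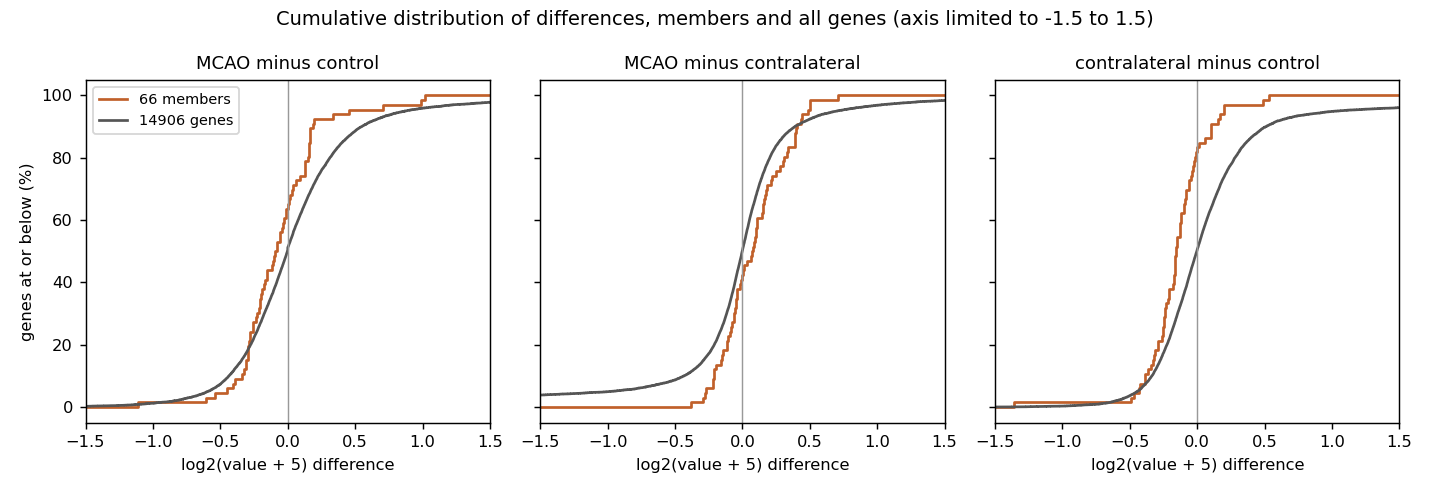
Cumulative percentage of genes (vertical axis) at or below a log2(value + 5) difference (horizontal axis), for the 66 members past the filter and for all 14906 genes past it. In the contralateral minus control panel the members' curve crosses 0 at 81.8%, and in all panels it stays within the 2-fold range for nearly all members.

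Other genes of guidance signalling, 85 of 87 listed outside these families, had a median difference of -0.10 between the MCAO and control libraries, with 1 gene past 2-fold higher (4.12% of all genes) and 0 lower (1.25%). Of the 85, 52 were lower by any size, where 50.3% of all genes were. That gene was Fes, a kinase that acts downstream of plexin-A and is abundant in myeloid cells, with 167 normalised counts in the MCAO library, 64.8 in the contralateral library and 52.3 in the control library. Met, a partner of plexin-B receptors, had 245 (MCAO), 154 (contralateral) and 131 (control). Mag, a myelin inhibitor of axon growth that is also an oligodendrocyte marker, had 12011 (MCAO), 7386 (contralateral) and 6772 (control). Rock1, a kinase downstream of RhoA, had 1644 (MCAO), 1184 (contralateral) and 959 (control) normalised counts, and Mical1, an oxidoreductase that acts on actin below plexins, had 756 (MCAO), 665 (contralateral) and 443 (control). The netrin receptor Dcc had 420 (MCAO), 542 (contralateral) and 637 (control). All 8 netrin receptors and co-factors of the list were lower than in control in the MCAO library. The ratios of Neo1, Dscaml1 and Draxin had intervals that included 1. Of 12 Slit and Robo effectors 11 were lower, with a median of -0.28, and the intervals of Evl and Gpc1 included 1. Flrt3 is in both of these lists. Semaphorin and plexin effectors were higher in 11 of 18 (median 0.05), shared cytoskeletal effectors in 13 of 23 (median 0.02), Eph and ephrin effectors in 4 of 13 (median -0.14), myelin inhibitors and their receptors in 3 of 8 (median -0.11), and netrin-G and RGM genes in 1 of 4 (median -0.21).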

How the data were processed

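The authors deposited 1 table of normalised read counts per gene (a signal). As its values show, each library's read counts were divided by 1 size factor, and no value is below 1. CASAVA 1.8, HISAT2 2.0.11, Partek 6.6, R 3.3.1, DESeq2 and mm10 are named in the submitters' processing notes, without their roles. The counter, annotation and strand setting are not given in the sources used here. Values were not divided by transcript length, so levels are compared between libraries and not between genes.

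Each column name was matched to a sample's description. Whole reads were recovered from the step between low values, which was 1.18 (MCAO), 0.887 (contralateral) and 0.969 (control) normalised counts; 99.9% of the values above 1 in each column were whole within 0.1 read. The design has 1 library per group, so no test was run. Differences used log2(value + 5), which understates those of low genes, with a filter at a mean of 20, and a member was counted at 2-fold. Ratios use no pseudocount. Their 95% intervals come from the reads by the exact Clopper-Pearson method. They cover counting error only, since PCR copies were not marked by molecular identifiers. The calculations were tested on simulated data.

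Members, gene lists and pairs were chosen with earlier results of these data known. Named members were those past 2-fold in any comparison, the 12 highest and 12 lowest by MCAO minus control, and the extremes and highest count of each family, 49 in all; the other 21 are given by ratio, reads or range, and those with a value of their own were chosen after their values were seen. All 70 symbols were found in RefSeq's GRCm38.p6 gene table (mm10). Alternatives were other pseudocounts, filters, fold sizes and scalings, edgeR 4.0.16 TMM factors among them, in R 4.3.3 and Python 3.11.15.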

Additional observations from a re-analysis of the deposited data

How the results depend on the processing

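The counts of members past 2-fold rest on single genes, which were low ones except for Plxnb3 with equal totals. Of members past 2-fold in the MCAO library against control, 0 were higher and 0 lower with a pseudocount of 20 or with a mean of at least 100, and 2 were higher (Efna4 and Epha2) and 2 lower (Sema3g and Unc5cl) with no filter on low values. Members 2-fold lower in the contralateral library than in control numbered 0, 0 and 2 under these settings. With equal totals, 2 were higher than in control in the MCAO library, Efna4 and Plxnb3. Plxnb3 is not a low gene, and its difference of 0.99 as reported was just under the line. At 1.5-fold, 3 were higher and 2 lower than in control, and 1 was higher than in both right hemispheres. The medians of members kept their sign in every alternative and moved by less than the median counting interval of the members, taken on one side. Of 281 values of named members under alternatives, 0 moved by more than the width of their own interval on one side, and 1 changed sign, Sema4f, which is close to 0. Without Unc50 and Unc5cl, chosen after seeing the data, every count past 2-fold was as reported. The share of members lower in the contralateral library than in control was lowest with equal totals, at 75.8% against 45.5% of all genes. No paired analysis was possible because each group had 1 library. Depth limits the lowest members: the Robo4 ratio of 1.81, MCAO over contralateral, had an interval of 0.776 to 4.35.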
